A study of Mus musculus with 8 samples.

Results

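The 10 chemokine genes followed here are ones that hepatocytes are known to make, Cxcl1, Cxcl2, Cxcl5, Cxcl10, Cxcl12, Cxcl16, Ccl2, Ccl7, Ccl20 and Cx3cl1, and they were measured in AML12 cells with and without irisin. They were read from all 11 non-control probes whose accessions map to these 10 genes, out of 39429 probes and 21612 named genes on the array. The set was selected on the measured difference between irisin and control of Cxcl5 and Cxcl2, which both rose, so their change is given as a description with no test. AML12 is a hepatocyte line established from the liver of a mouse carrying a TGF-α transgene, and irisin is the peptide released from the membrane protein Fndc5. All cells were grown in DMEM F-12 with 10% fetal bovine serum. The control group was 4 samples cultured for 24 h without irisin, and the irisin group was 4 samples cultured for 24 h with 0.5 µg/ml irisin. RNA of each sample carried Cy3 on a one-color Agilent array of its own. The labels do not say whether the 4 samples of a group came from separate cultures, so p-values measure the spread between these samples, which may be technical.

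Chemokines are small secreted proteins that guide leukocytes by binding to G protein-coupled receptors, and their CXC, CC and CX3C families are named after the spacing of conserved cysteines. In liver, hepatocytes release the neutrophil attractants Cxcl1, Cxcl2 and Cxcl5, which act through Cxcr2, and the monocyte attractant Ccl2, which acts through Ccr2. Interferons raise Cxcl10, whose receptor is Cxcr3. Cxcl16 and Cx3cl1 are made as membrane proteins, and metalloproteases release them.

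Levels are log2 processed signals minus the log2 of the array's 75th percentile, so that a value of 0 lies at that percentile, and levels of different probes are not set against each other. Between 59.5% and 64.1% of the probes of an array were well above background. The 75th percentile of the signal was 372 to 534 in the control group and 682 to 850 in the irisin group. Each group was hybridized on a slide of its own, and treatment therefore cannot be told apart from slide and scan. Limma was run on probes that every array of either group measured well above background, and a change was called when it reached 1.5-fold (0.585 on the log2 scale) with an adjusted p under 0.05. Of 24093 tested probes, 172 were called higher (0.714%) and 2816 lower (11.7%). The split depended on the scaling, with 670 higher and 1021 lower after quantile normalization, 699 and 926 after cyclic loess, 7804 and 362 on the scale of the spike-in probes, and 14920 and 162 without any scaling. Over all tested probes the median log2 change was -0.08 with the 75th percentile, 0.5 by the spike-in probes and 0.66 unscaled. All 12 hepatocyte markers were well above background on every array and none of them was called, among them Alb (0.11), Ttr (-0.05), Trf (-0.39), Krt8 (-0.09), Krt18 (-0.47) and Hnf4a (-0.10), given as log2 changes. Their summed level (signal relative to the 75th percentile) was 467 to 518 on the control arrays and 380 to 447 on the irisin arrays, lower with no overlap. Of single tested genes, 23.8% had groups that did not overlap, in either direction. Bright markers weigh most in the sum, among them Krt18 (mean log2 level 7.58 in control, 7.11 with irisin) and Trf (6.86 and 6.48). Of the 12 markers, 4 changed above 0 and 8 below, at a median of -0.10, beside -0.0643 for all tested genes.

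Of the 10 chemokine genes, 8 were well above background on all 8 arrays, each through 1 probe. Cxcl12, a homing signal for blood progenitors that binds Cxcr4, had 2 probes, and neither was well above background on any array. Their processed signals lay between 0.945 and 3.11 and between 1.07 and 1.17 over the 8 arrays. Ccl20, the ligand of Ccr6, had 1 probe with processed signals between 0.881 and 0.954, also not well above background on any array. These genes were not tested and no fold change is given for them. Of the 6 tested genes that did not choose the set, limma called 0 higher and 0 lower, and the lowest unadjusted p was 0.0784 (Cxcl1). Over all 14312 tested genes, each represented by its brightest tested probe, 76 (0.531%) were called higher and 1461 (10.2%) lower. Cxcl5 and Cxcl2 passed both thresholds, which is what they were picked for, and nothing is read from it.

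Cxcl5 was at 1.52, 1.39, 1.504 and 1.61 on control arrays 1 to 4 and at 2.89, 2.34, 2.51 and 2.54 on irisin arrays 1 to 4 (log2 level). Every irisin array lay above every control array, and irisin replicate 1 was the highest. The mean level was 1.51 ± 0.0929 in control cells and 2.57 ± 0.234 in irisin-treated cells (SD, n = 4 in each group), a log2 difference of 1.06, or 2.09-fold. On the unscaled processed signal, Cxcl5 was at 1069 to 1519 in the control group and at 3439 to 5913 in the irisin group. In bulk RNA such as this, more cells expressing a gene and more of its RNA per cell cannot be told apart.

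Cxcl2 was at -4.62, -4.46, -4.58 and -4.52 on the control arrays and at -3.31, -4.03, -3.67 and -4.00 on the irisin arrays (log2 level). The groups did not overlap, and irisin replicate 1 was again the highest and irisin replicate 2 the lowest of its group. The mean level was -4.54 ± 0.068 in control cells and -3.75 ± 0.339 in irisin-treated cells (SD, n = 4 in each group), a log2 difference of 0.79, or 1.73-fold. Its processed signal was weak, 15.1 to 22.4 in the control group and 41.9 to 80.4 in the irisin group, though well above background on every array. The median raw signal of the negative control spots lay between 17 and 20. That value is before background subtraction, so it is not on the scale of the processed signal. The value of Cxcl2 depended on how background was removed. With normexp fitted on unmarked spots, a correction chosen after seeing the data, it changed by 0.49 with no offset and by -0.12 when an offset of 50 was added to every array. The same corrections gave 1.17 and 1.2 for Cxcl5. The offset is the same on all arrays, while the 75th percentile of the corrected signal before it was 359 to 529 in the control group and 662 to 820 in the irisin group.

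**Figure D1:**
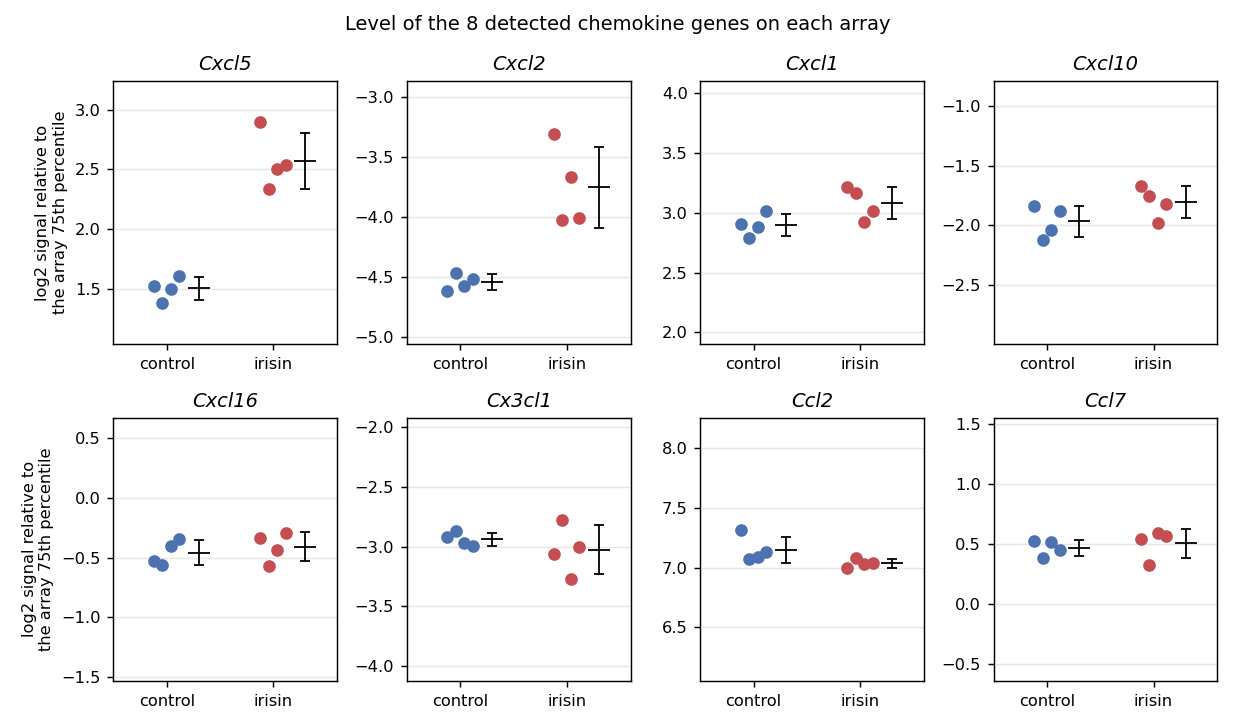
Each panel plots the log2 signal of 1 chemokine gene on the scale of the text, with 1 point for each of 4 control and 4 irisin arrays and the mean ± SD beside them. All panels span the same height. The groups are apart for Cxcl5 and Cxcl2 and overlap for the 6 other genes.

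Cxcl1, the third neutrophil attractant of the set, was at 2.90, 2.79, 2.88 and 3.01 on the control arrays and at 3.21, 3.16, 2.92 and 3.02 on the irisin arrays (log2 level). The groups overlapped, with irisin replicate 3 below control replicate 4. The log2 difference was 0.18 (95% interval -0.0245 to 0.39), which did not pass the thresholds (adjusted p = 0.202 from limma, and p = 0.0571 in the exact two-sided permutation test). The upper bound of the interval lies under 1.5-fold with the 75th percentile. The groups overlapped for Cxcl1 and for the other 5 genes that did not choose the set, while 23.8% of all tested genes had groups that did not overlap, in either direction.

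Cxcl1, Cxcl2 and Cxcl10 had the kappa B type motif GGANTTTCC, the kind of site bound by NF-κB dimers, in the promoter window of RefSeq (GRCm38.p6), which runs from 250 bases before to 50 bases after the annotated start. The table had windows for 6 of the 10 genes, and Cxcl5, Cxcl16, Ccl2 and Ccl7 were not among them. The motif was searched on both strands and was held by 412 of 32851 windows (1.25%). The stretches that carry it are printed 5′ to 3′ on the strand of the gene, with the motif in capitals, for these 3 genes and for Cxcl3, a further ligand of Cxcr2 described below.
Cxcl2 (chr5:90903773-90903892, plus strand): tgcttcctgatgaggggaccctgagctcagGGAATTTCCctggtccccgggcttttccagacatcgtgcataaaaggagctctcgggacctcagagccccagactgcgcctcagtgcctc
Cxcl1 (chr5:90891125-90891244, plus strand): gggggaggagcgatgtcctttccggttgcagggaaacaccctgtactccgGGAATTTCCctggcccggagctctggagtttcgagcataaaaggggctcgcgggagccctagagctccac
Cxcl3 (chr5:90785981-90786100, plus strand): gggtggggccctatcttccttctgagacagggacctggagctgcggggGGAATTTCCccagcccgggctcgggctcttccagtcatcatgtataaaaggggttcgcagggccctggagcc
Cxcl10 (chr5:92348958-92349077, minus strand): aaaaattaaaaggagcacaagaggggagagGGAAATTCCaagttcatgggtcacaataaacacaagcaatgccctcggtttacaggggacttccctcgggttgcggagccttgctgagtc
The motif begins 96 bases before the annotated start of Cxcl2, 70 before that of Cxcl1 and 72 before that of Cxcl3, and in Cxcl10 it begins 158 bases before the start and lies on the opposite strand. Cxcl1 and Cxcl2 share the run GGGAATTTCCCTGG around it, the longest run common to their upstream 250 bases. The AP-1 type motif TGANTCA was present in Cxcl10 alone among the 6 genes, from 74 bases before its start, and was held by 7.81% of all windows. The C/EBP type motif TTGCNNAA was in none of the 6 and in 10.8% of all windows, and TATAAA was in that of Cx3cl1 and in 13.6% of all windows.

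Cxcl10, which draws activated T cells through Cxcr3, was at -1.84, -2.12, -2.04 and -1.88 on the control arrays and at -1.67, -1.75, -1.98 and -1.82 on the irisin arrays (log2 level). Its groups overlapped, and the log2 difference of 0.16 (95% interval -0.0569 to 0.38) did not pass the thresholds (adjusted p = 0.29 from limma, and p = 0.143 in the exact permutation test). Cxcl16, the membrane-bound ligand of Cxcr6, was at -0.53, -0.56, -0.40 and -0.34 on the control arrays and at -0.34, -0.57, -0.44 and -0.29 on the irisin arrays. Its 4 irisin arrays spread over the range of the control arrays. The log2 difference of Cxcl16 was 0.05 (95% interval -0.155 to 0.25; adjusted p = 0.765 from limma, and p = 0.571 in the exact permutation test). Cx3cl1, which can hold leukocytes as a membrane protein through Cx3cr1, was at -2.92, -2.87, -2.97 and -2.99 on the control arrays and at -3.06, -2.77, -3.27 and -3.01 on the irisin arrays. The control arrays of Cx3cl1 lay within the spread of the irisin arrays, and the log2 difference was -0.09 (95% interval -0.324 to 0.15; adjusted p = 0.623 from limma, and p = 0.486 in the exact permutation test).

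Ccl2, the main monocyte attractant among the CC genes of the set, was measured by 10 spots of 1 probe and was at 7.31, 7.07, 7.09 and 7.13 on the control arrays and at 6.995, 7.08, 7.03 and 7.04 on the irisin arrays (log2 level). Control replicate 1 was the highest array, and the other 3 control arrays were close to the irisin arrays. The log2 difference was -0.12 (95% interval -0.297 to 0.0649; adjusted p = 0.367 from limma, and p = 0.0571 in the exact permutation test), and its direction turned with the scaling, to 0.29 after quantile normalization and 0.14 after cyclic loess. Ccl7, which also acts on monocytes through Ccr2, was at 0.53, 0.38, 0.52 and 0.45 on the control arrays and at 0.54, 0.32, 0.59 and 0.57 on the irisin arrays. Its lowest level was that of irisin replicate 2. The log2 difference of Ccl7 was 0.04 (95% interval -0.158 to 0.23; adjusted p = 0.827 from limma, and p = 0.6 in the exact permutation test). For each of the 6 genes that were not called, the 95% interval lay within 1.5-fold in both directions, with the lowest bound at -0.32 and the highest at 0.39.

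**Figure D2:**
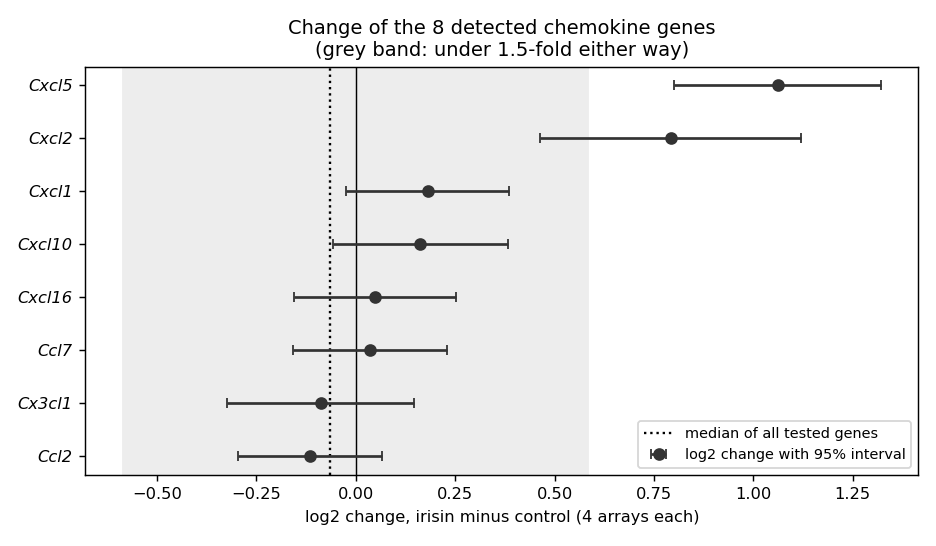
The plot gives, for each of the 8 tested chemokine genes, the log2 change of irisin minus control with its 95% interval from limma (4 arrays in each group), the range under 1.5-fold as a grey band and the median of all tested genes (-0.0643) as a dotted line. Cxcl5 (1.06) and Cxcl2 (0.79) lie past the band and the intervals of the other 6 genes lie within it. Cxcl5 and Cxcl2 chose the set by this change, so their intervals are no test.

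Without Cxcl5 and Cxcl2, the median log2 change of the other 6 genes was 0.04 (range -0.12 to 0.18), with 4 genes above 0 and 2 below, beside a median of -0.0643 for all tested genes. With both, it was 0.11, which the choice of the set raised. Cxcl5, Cxcl2 and Cxcl1 share the receptor Cxcr2, and their differences were 1.06, 0.79 and 0.18. Cxcl5 and Cxcl2 chose the set by these values, so nothing is read from their distance to Cxcl1. Ccl2 and Ccl7, which share Ccr2, differed by -0.12 and 0.04.

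Other chemokine ligands were read from a list of 28 genes, of which 26 were on the array and 14 were tested. Limma called 1 of them higher and 0 lower, beside 0.531% higher and 10.2% lower over all tested genes. Their median log2 change was -0.10. The called gene was Cxcl3, which like Cxcl1, Cxcl2 and Cxcl5 draws neutrophils through Cxcr2. Cxcl3 was at -2.76, -2.79, -2.88 and -2.87 on the control arrays and at -2.13, -1.94, -2.27 and -2.17 on the irisin arrays (log2 level). The groups did not overlap, and the log2 difference was 0.70 (standard error 0.0899, adjusted p = 0.000336 from limma), or 1.62-fold. With normexp on unmarked spots it was 0.64 with no offset, where it was called, and 0.22 with the offset of 50, where it was not. The next ligands by size of increase were Pf4 (0.40, adjusted p = 0.173 from limma) and Ppbp (0.36, adjusted p = 0.0775 from limma), both of which are platelet chemokines. These were called higher as well after quantile normalization (Pf4 0.80 and Ppbp 0.68) and after cyclic loess (0.82 and 0.71), so that 3 of the listed ligands passed there. Under both scalings more of all tested probes were called higher too. Cxcl9, an interferon-induced ligand of Cxcr3, changed by 0.22 (adjusted p = 0.283 from limma). The log2 changes of Ccl19 (-0.46, adjusted p = 0.00953 from limma) and Ccl5 (-0.41, adjusted p = 0.0341 from limma), both ligands for lymphocyte receptors, did not reach 1.5-fold. Among the 10 ligands well above background on no array were Ccl3, Ccl4, Ccl11 and Ccl22.

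The genes of the neutrophil attractants lie next to each other in mouse. In the order of the RefSeq gene table, an unbroken run of 7 ligand genes on chromosome 5 is formed by Cxcl5, Ppbp, Pf4, Cxcl3, Cxcl15, Cxcl1 and Cxcl2. Cxcl15 was well above background on no array. The other 6 had log2 changes above 0, with values of 1.06, 0.36, 0.40, 0.70, 0.18 and 0.79 in that order. Their median was 0.55, which the choice of the set raised, since Cxcl5 and Cxcl2 are among them. Over all 14312 tested genes, 5152 had changes above 0 and 9160 below. The genes called higher lay at the first, the fourth and the last place of the run, with Cxcl1 beside Cxcl2 not called. Ccl2 and Ccl7 begin a run of 6 ligand genes on chromosome 11, in which 3 genes were tested, Ccl2 (-0.12), Ccl7 (0.04) and Ccl8 (-0.28, adjusted p = 0.206 from limma). The grouping by position was chosen after the values were seen and was not tested.

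**Figure D3:**
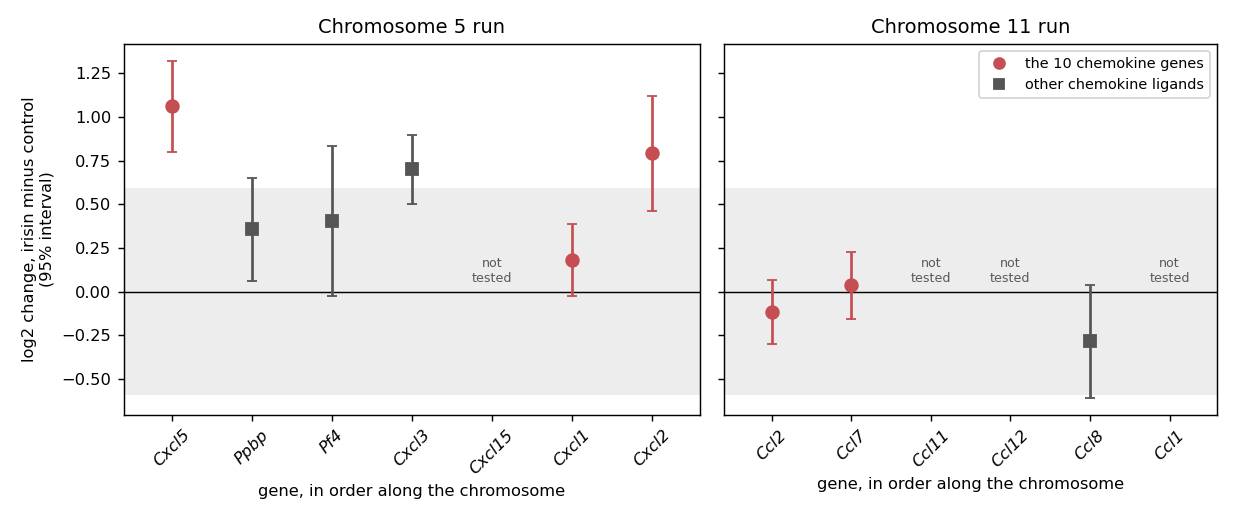
The left panel shows the 7 neighbouring ligand genes of chromosome 5 and the right panel the 6 of chromosome 11, in order along the chromosome and not to scale, with the log2 change of irisin minus control and its 95% interval for those tested. The 6 tested genes on chromosome 5 lie between 0.18 and 1.06, and the 3 on chromosome 11 between -0.28 and 0.04. The intervals of Cxcl5 and Cxcl2, which chose the set, are no test.

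Of 23 receptor genes on the array, 6 were well above background on all 8 arrays and 11 on none, among the latter Cxcr3, Cxcr4, Ccr2, Ccr6 and Cx3cr1, the receptors of Cxcl10, Cxcl12, Ccl2, Ccl20 and Cx3cl1. Cxcr2, the receptor of the neutrophil attractants, was well above background on 1 of 8 arrays and was not tested. Among the 6 detected on every array, limma called 0 higher and 3 lower, with a median log2 change of -0.67, beside 10.2% lower calls and a median of -0.0643 over all tested genes. These were Ccrl2 (-1.07, adjusted p = 0.000599 from limma), Ccr9 (-0.76, adjusted p = 0.000422 from limma) and Ccr3 (-0.76, adjusted p = 0.00139 from limma). The scavenging receptor Ackr1 and Cxcr6, the receptor of Cxcl16, also passed the thresholds, but they entered the test only through the control group, in which they were higher, so their values are a description. Ackr1 was well above background on 4 control and 3 irisin arrays, with a log2 difference of -1.41, and Cxcr6 on 4 and 1, with -1.29. A further probe of Cxcr6 was well above background on no array and was not tested, and its groups overlapped. All 5 receptors called lower stayed below 0 under the other scalings. However, Ccr9 and Ccr3 were not called after quantile normalization or cyclic loess, and with no scaling only Ackr1 was. The 5 probes were dim, as were most probes called lower on these arrays, 84.8% of which lay in the 3 dimmest deciles. The share and median over all tested genes were not taken among equally dim genes. On the unscaled processed signal, the groups overlapped for Ccrl2 (9.4 to 15.9 in control, 7.6 to 13.3 with irisin). They also overlapped for Ccr9 (4.9 to 8.5 and 5.9 to 8.2) and Ccr3 (5.5 to 10.2 and 6.7 to 9.3). Ackr3, also detected on every array, went the other way (0.40, adjusted p = 0.0119 from limma), under 1.5-fold. Its groups did not overlap. Ackr3 was called higher after quantile normalization (0.69) and cyclic loess (0.72). By the spike-in probes Ackr3 (0.97) and Ackr2 (0.63) were both called higher, as they were unscaled (1.13 and 0.79). In each of these settings more of all tested probes were called higher too.

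**Figure D4:**
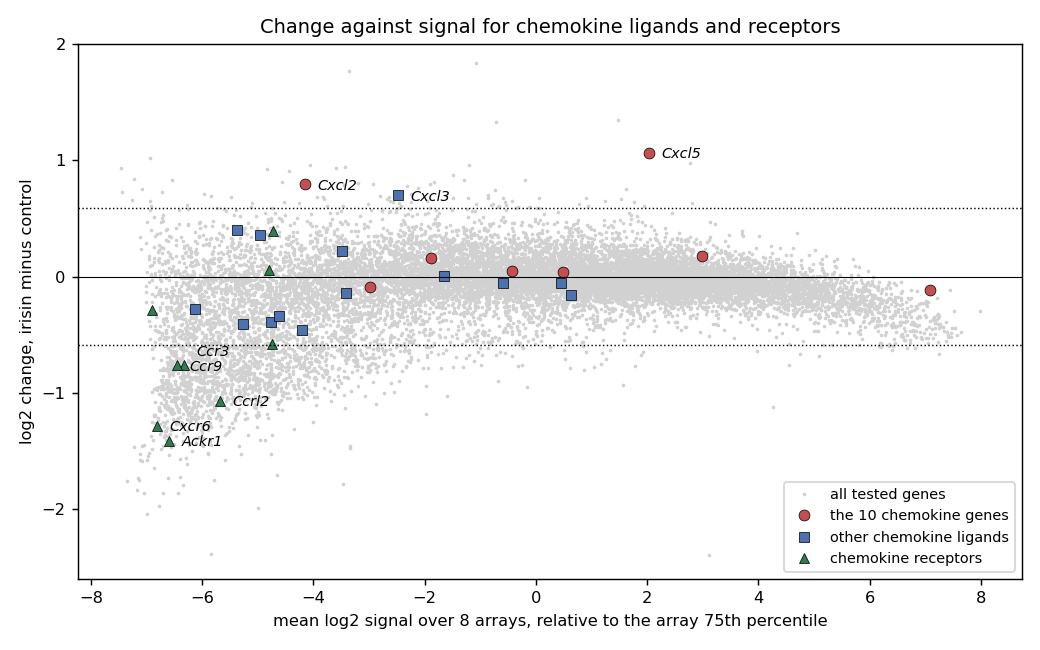
The log2 change of irisin minus control is plotted against the mean log2 signal over the 8 arrays, relative to the 75th percentile, for all 14312 tested genes (grey), the 8 tested chemokine genes, the 14 other tested ligands and the 9 tested receptors, with 1.5-fold changes as dotted lines and the called genes named. The 5 receptors called lower lie at the dim end, where many genes lie below 0, and Cxcl5, Cxcl2 and Cxcl3 lie above the upper dotted line at 0.585.

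Upstream of chemokine transcription, 31 inflammatory receptors and adaptors were listed, and 29 were tested. Limma called 1 of them higher and 0 lower, beside 0.531% higher and 10.2% lower over all tested genes, with a median log2 change of -0.03. The called gene was Il1rap, the accessory chain of the interleukin-1 receptor, which rose by 0.59 (adjusted p = 0.0177 from limma) and was 1.51-fold higher. Il1rap was no longer called without control replicate 4 or without irisin replicate 3, or when arrays were scaled by the median of detected probes, and it was not called by the methods' test (adjusted p = 0.0736, a test across all probes without limma's moderation) or with any of the normexp corrections. The ligand-binding chain Il1r1 changed by 0.51 (adjusted p = 0.00238 from limma), under 1.5-fold, from levels between -1.25 and -1.16 on the control arrays to levels between -0.84 and -0.49 on the irisin arrays. Its groups did not overlap. The receptors Tnfrsf1a (-0.06), Tlr2 (0.05), Cd14 (-0.12) and Il17ra (0.35) and the adaptor Myd88 (-0.03) were not called, and Tlr4 was well above background on 2 of 8 arrays and not tested.

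Of 22 other cytokines and growth factors, 13 were tested, and limma called 1 higher and 0 lower, beside 0.531% and 10.2% over all tested genes. The called gene was Il15, a growth factor for natural killer cells, which was well above background on all 4 irisin arrays and on no control array. It therefore passed the filter only through the group in which it was higher, and its call is given as a description. Il15 was at least 1.05-fold higher in irisin-treated cells, with measured means of -6.62 and -7.27. The call was lost without control replicate 1 (0.56) and without control replicate 4 (0.56), and with normexp on unmarked spots the change was 0.05 with no offset and -0.53 with the offset. Among the 12 listed genes measured well above background on each of the 8 arrays, limma called 0, at a median log2 change of -0.02. Limma gave an adjusted p under 0.05 with less than 1.5-fold for Csf2 and Lif, which rose, and for Lta and Mif, which fell. Lta changed by -0.45 (adjusted p = 0.016 from limma) and Mif by -0.37 (adjusted p = 0.0167 from limma). The inflammatory cytokines Il1a, Il1b and Tnf were well above background on no array. Csf2, a myeloid growth factor, changed by 0.38 (adjusted p = 0.012 from limma) and Lif by 0.35 (adjusted p = 0.029 from limma), both under 1.5-fold. Of 20 genes for chemokine release, retention on heparan sulfate and mRNA decay, 18 were tested and none was called by limma, beside the same shares over all tested genes. Adam10, which sheds Cxcl16 and Cx3cl1, changed by -0.05 (adjusted p = 0.736 from limma), and Adam17, which sheds Cx3cl1, by -0.50 (adjusted p = 0.00604 from limma), under 1.5-fold. Zfp36, whose protein speeds the decay of chemokine mRNAs, changed by -0.23 (adjusted p = 0.079 from limma).

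Genes whose levels followed Cxcl5 and Cxcl2 across the 8 arrays were sought among 13764 genes, and the correlations are a description, since the 2 groups of arrays differ in treatment and slide. For Cxcl5 the highest were Ank3 (Pearson r of 0.982), Il1r1 (0.981) and F11 (0.977), whose log2 changes were 0.41, 0.51 and 0.30. For Cxcl2 they were A230072C01Rik (0.98), Khdc4 (0.976) and Ska3 (0.975), whose log2 changes were 0.47, 0.38 and 0.44.

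Of 8 macrophage markers, 3 were tested and Lyz2 and Cd163 were well above background on no array, and their summed level (signal relative to the 75th percentile) was 0.559 to 0.664 on the control arrays and 0.468 to 0.558 on the irisin arrays. Marco, a macrophage scavenger receptor, was called lower (-1.21, adjusted p = 0.000893 from limma). Its unscaled processed signal was 6.84 to 13.9 in the control group and 6.22 to 9.91 in the irisin group. Of 6 endothelial markers, 2 were tested, Cdh5, Lyve1 and Tek were well above background on no array, and the summed level was 0.703 to 0.79 and 0.414 to 0.585. Kdr weighs most in this sum (mean log2 level -0.51 in control, -1.07 with irisin). The unscaled processed signal of Kdr was 261 to 389 in the control group and 302 to 435 in the irisin group. Pecam1, an adhesion protein of endothelium, was called lower (-0.61, adjusted p = 0.00214 from limma). Its unscaled processed signal was 16.6 to 27.0 in the control group and 19.9 to 26.7 in the irisin group. Marco and Pecam1 were dim, as were most probes called lower, and 10.2% of all tested genes were called lower. Of 7 neutrophil and lymphocyte markers, 4 were tested and 2 were well above background on no array. Their summed level was 0.892 to 1.00 on the control arrays and 0.694 to 0.783 on the irisin arrays. Nkg7 weighs most in this sum (mean log2 level -0.70 in control, -1.19 with irisin). Its unscaled processed signal was 209 to 356 in the control group and 311 to 392 in the irisin group. Of the 4 tested, 1 changed above 0 and 3 below. The one above was Ly6g (0.35, adjusted p = 0.0197 from limma), under 1.5-fold. Of 7 stellate cell or fibroblast markers, 1 was tested (Col1a1, 0.01) and 6 were well above background on no array. The summed level of these 7 was 0.0471 to 0.0551 and 0.0407 to 0.0475. Of 5 bile duct markers, 4 were tested, and the summed level was 42.8 to 50.7 and 41.4 to 48.3. The part of other cell types in the chemokine results was not tested.

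**Figure D5:**
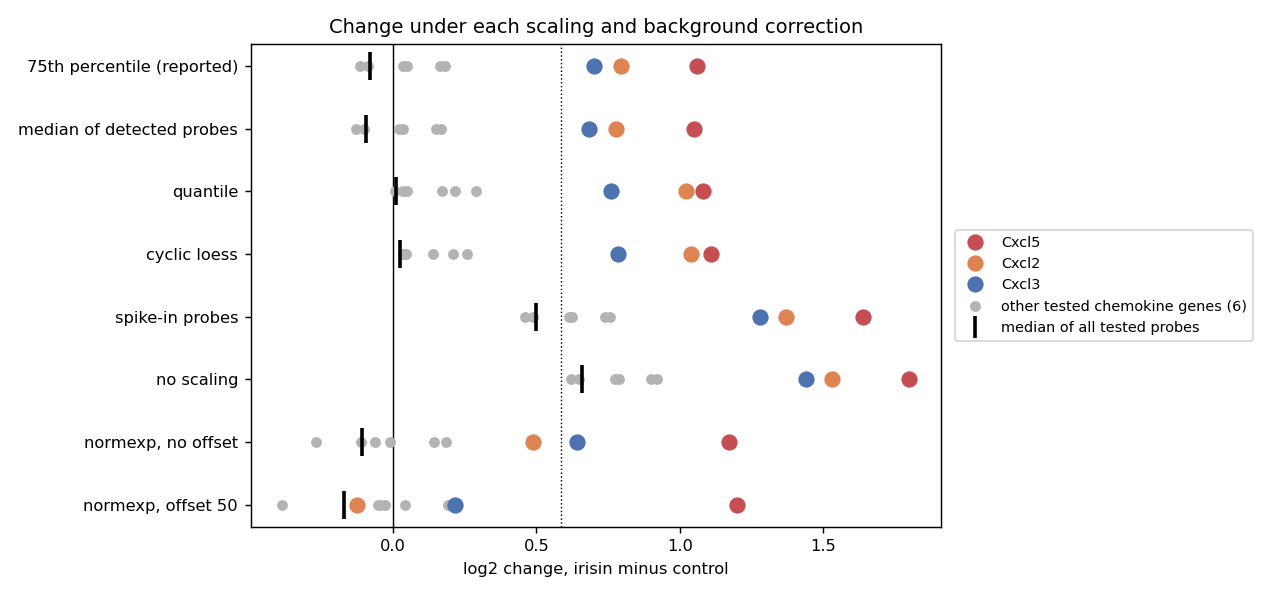
Each row is 1 scaling or background correction, each point the log2 change of 1 gene (irisin minus control, 4 arrays each) and each black bar the median of all tested probes, with 1.5-fold as a dotted line. Cxcl5 stays to the right of the dotted line in all 8 rows, while Cxcl2 moves from 0.79 with the 75th percentile to 0.49 and -0.12 with the normexp corrections on unmarked spots.

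Leaving out single arrays gave log2 differences between 0.95 and 1.14 for Cxcl5, between 0.65 and 0.89 for Cxcl2 and between 0.64 and 0.75 for Cxcl3. The lowest value of Cxcl5 and of Cxcl2 was that without irisin replicate 1. On the scale of the spike-in probes 6 of the 8 tested chemokine genes were called higher and without scaling all 8 were. All tested probes together had a median log2 change of 0.5 and 0.66 in these settings. Far more of all probes were called higher there too, by the counts given with the scalings above. Both chemokine counts include Cxcl5 and Cxcl2, which chose the set, and nothing is read from them.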

How the data were processed

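Total RNA of 8 AML12 samples was measured, 4 control and 4 irisin, grouped by their deposited labels. The authors processed the scans with Agilent Feature Extraction 12.0.3.1, which subtracts background, and deposited signal intensity on a linear scale, not normalized between arrays. Their deposited value table holds the mean processed signal of each probe, within 5e-04% of the scanner values, with medians of 13.8 to 25.2 per array.

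From the scanner values, spots that the software marked as uneven or as outliers among replicate spots were dropped (up to 0.463% of the 43020 non-control spots of an array), the spots of a probe were averaged, and log2 was taken relative to the 75th percentile. Accessions of 28663 probes (72.7%) matched RefSeq genes of GRCm38.p6. Positions in the files belong to another build and were not used. Tests used limma 3.58.1 in R 4.3.3 over all 24093 tested probes, with Benjamini-Hochberg adjustment, and an exact permutation test (two-sided, 70 assignments, smallest p 0.0286). Motifs were searched with Python 3.11.15. The fitting code was tested on simulated data. The number of arrays limits the precision.

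The 10 genes and all lists were chosen with earlier results of these data known. The text names every probe of the 10 genes, the called genes of each list (at most 6 each way), set hepatocyte markers, called markers of other cells and the 3 genes most correlated with Cxcl5 and with Cxcl2. Other genes were named after their values were seen.

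Replicate numbers were checked for pairing and do not pair the samples. Alternatives were normexp background correction, other scalings, filters, thresholds and fits, a replicate block, and each array left out.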

Additional observations from a re-analysis of the deposited data

Results flagged for a closer look

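Among 32 groups of 4 arrays checked for an outlying array (the tested chemokine genes and the called list genes), 1 was found, and chance alone marks about 1 group in 20. Ccrl2, an atypical chemokine receptor, was at -6.72 on irisin replicate 1 (log2 signal relative to the 75th percentile), while the other 3 irisin arrays lay between -6.10 and -6.00. It stayed called lower with each array left out.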

How the results depend on the processing

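The chemokine genes called higher, 2 with the reported settings (Cxcl5 and Cxcl2, which chose the set), were 6 with spike-in scaling, 8 without scaling, 1 with a 2-fold threshold, 0 with normexp on all spots, and 1 with normexp on unmarked spots, with or without the offset. The genes called lower, 0 as reported, were 2 with no filter on dim probes, where Cxcl12 and Ccl20 entered. Other settings left both counts unchanged, among them quantile normalization, cyclic loess and each array left out. With the replicate block 2 were called higher and 0 lower, and no call on a chemokine gene changed. Same-numbered arrays had correlations of 0.11, -0.35, -0.13 and 0.17 in their deviations from the group means.

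Over all tested probes, 172 were called higher as reported and 54 with normexp on unmarked spots with the offset, 0 with normexp on all spots, 670 with quantile normalization, 699 with cyclic loess, 7804 with spike-in scaling, 14920 with no scaling, 108 with the methods' test, 713 with the adjusted p alone, 23 with a 2-fold threshold, and 102 to 335 with 1 array left out, the ends being those without irisin replicate 3 and without irisin replicate 2. Called lower were 2816 as reported and 0 with normexp on all spots, 1021 with quantile normalization, 926 with cyclic loess, 362 with spike-in scaling, 162 with no scaling, 12750 with no filter, 5197 with the adjusted p alone and 778 with a 2-fold threshold.

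The normexp fit on all spots was set by a few spots whose local background lay far above their signal (differences down to -10541 and -11848 on irisin replicates 2 and 4), and its background mean was -306 and -395 there, against -10.7 to -8.06 on the other arrays. With spots marked as outliers left out of the fit it was -9.73 to -4.00 on all arrays. Both versions on unmarked spots were chosen after seeing the data.

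Log2 changes turned direction as follows. Ccl2 was 0.289 with quantile normalization, 0.141 with cyclic loess, 0.46 by spike-in probes and 0.622 with no scaling. Cx3cl1 was 0.00845, 0.0355, 0.487 and 0.649 in the same order, and 0.232 with normexp on all spots. With normexp on all spots, Ccl7 was -0.0833, Cxcl1 -0.0242, Ackr1 0.412, Ccr3 0.442, Ccr9 0.455, Ccrl2 0.355 and Cxcr6 0.46. With normexp on unmarked spots and the offset, Ccl7 was -0.0454, Cxcl16 -0.0295, Cxcl2 -0.125, Il15 -0.526 and Il1rap -0.266, and with no offset Ccl7 was -0.0633 and Cxcl16 -0.0094. Apart from the construction of the offset and of the fit on all spots, the cause was not tested. Probe sequences were not used here, so hybridization shared among the similar genes Cxcl1, Cxcl2 and Cxcl3 was not tested. Signals near background limit Cxcl2 and the receptors.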
